A study of Mus musculus with 25 samples.

Results

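Hox genes were taken as all genes of the deposited table whose symbol names a Hox cluster (a, b, c or d) and a paralog number. This rule gave 39 of 24358 genes, 11 in the Hoxa cluster, 10 in Hoxb, 9 in Hoxc and 9 in Hoxd, and Cuffdiff reported an estimate for each of them in all 5 conditions. The conditions compare prenatal exposure to di(2-ethylhexyl) phthalate (DEHP), a plasticizer with anti-androgenic effects, in 2 inbred mouse strains. Sperm RNA of males aged 14 weeks, taken from the cauda epididymis, was sequenced in 25 libraries, 5 for each condition. First-generation C57BL/6J males formed C57.CTL.F1, whose mothers were given corn oil by mouth, and C57.D300.F1, whose mothers were given 300 mg/kg/day DEHP, on embryonic days 9 to 19. C57.D300.F2 was the second C57BL/6J generation, sired by first-generation males that were exposed in utero and born to unexposed females. FVB.CTL.F1 and FVB.D300.F1 were the vehicle and DEHP conditions of the FVB/N strain. No vehicle lineage of the second generation was analysed here. The labels mark the 10 first-generation C57BL/6J libraries as a re-analysis and the other 15 were new, so that a strain or generation difference against the reused conditions cannot be told apart from a difference between the 2 sets of libraries.

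Hox genes encode homeodomain transcription factors that give cells their position along the body axis. Within a cluster their order on the chromosome follows their domains in the embryo, from anterior (paralog group 1) to posterior (paralog group 13), and the same code is kept along the ducts of the male tract. Hoxa10 and Hoxa11 are known for the identity of the epididymis and vas deferens, and Hoxa13, Hoxb13 and Hoxd13 for the prostate and seminal vesicle. Paralog groups 1 to 4 are called anterior here (12 genes), 5 to 8 central (11 genes) and 9 to 13 posterior (16 genes).

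The values are estimated fragment counts, 1 per gene and condition, which Cuffdiff combined from the 5 libraries without a correction for gene length. With single values per condition there is no spread between replicates and no test, so p-values are absent. The SD that Cuffdiff's model gives a count is called the model SD, and detection was limited to more than 3 counts, a limit for counting error only. The total over all genes lay between 6921688 counts in C57.D300.F2 and 8602900 in C57.CTL.F1. The label of sperm was checked against 12 late germ cell genes, which were present in every condition, with Smcp at 35149, 31101, 10099, 1799 and 1784 counts in the order of conditions used throughout, C57.CTL.F1, then C57.D300.F1 and C57.D300.F2, and last FVB.CTL.F1 with FVB.D300.F1. Genes of other tissues were present as well, with 7 prostate genes at 58.8, 60.6, 288, 60.5 and 114 and the blood list at 9315, 12361, 8189.9, 3725 and 7419.9 counts in sum. The 11 genes of a general epithelial list summed to 14214, 11442, 15929.7, 22209.8 and 20003 counts in the same order, and 14 smooth muscle and connective tissue genes to 55972, 60256, 62649, 49869 and 39440.5. In bulk RNA, fewer cells of a type and less RNA per cell cannot be told apart.

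Together the 39 Hox genes summed to 3963, 3592, 5094, 6681 and 7044 counts in C57BL/6J (vehicle, DEHP, second generation) and FVB/N (vehicle, DEHP). In these values both FVB/N conditions were above the 3 C57BL/6J conditions, and the second generation was above both reused conditions. Hoxd3 and Hoxd4 made up 1006, 764, 1358, 1837 and 2125 counts of the totals. The model SD of Hoxd4 alone, 4914, 3925 and 9854 counts in the C57BL/6J conditions, exceeded the Hox total there. The order of the totals was thus not resolved. In at least 1 condition, 30 of the 39 genes reached 10 counts, and 23 reached them in all 5. The remaining 9 genes of the 39 stayed below 10 counts throughout, and 5 of these (Hoxa13, Hoxb1, Hoxb13, Hoxc11 and Hoxc12) were at 3 counts or fewer in every condition.

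The Hoxb and Hoxd clusters held most of the Hox counts. Hoxb contributed 42.0, 42.0, 44.7, 52.2 and 52.4% of the Hox total in the 5 conditions and Hoxd 41.8, 37.9, 42.2, 39.3 and 40.6%. The shares of Hoxa were 13.1, 15.1, 9.19, 6.67 and 5.42%, and Hoxc contributed 3.00, 4.96, 3.85, 1.82 and 1.61%. The Hoxa share was thus lower in the new than in the reused conditions, while its summed count differed less, at 519.6, 544, 468, 445 and 382. Each share rests on the Hox total and carries its limit from Hoxd3 and Hoxd4.

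Per kilobase of exon, the highest Hox level, averaged over the conditions, belonged to Hoxd4, a gene known for the identity of the upper cervical vertebrae. It lies on chromosome 2 of GRCm38 from 74711929 to 74729160 (plus strand). Its level was 233, 180.0, 336, 434 and 512 counts per exon kb in the 5 conditions, C57BL/6J first. This placed it at the 93.2 percentile of the genes with an exon length in C57.CTL.F1 and at the 97.4 percentile in FVB.D300.F1. Its value was above those of the other Hox genes in every condition. Its model SD was wider than the value itself in all conditions but FVB.CTL.F1, at 4914, 3925, 9854, 1222 and 1806 counts against 688, 531, 989, 1279 and 1510.2 counts. Its neighbour Hoxd3, known for the atlas, shares exon bases with it and had the same kind of model SD, 3295, 2534, 5962, 726 and 1036 against 318, 233, 369, 558 and 615 counts. Both genes surround Mir10b, which is described with the noncoding genes. Next in level per exon kb were Hoxb8, with 167, 145, 236, 318 and 275, and Hoxb9, with 118, 162, 175, 290.4 and 387. Hoxb8, at 96281905 to 96285315 on chromosome 11 (plus strand), exceeded Hoxb9 in C57.CTL.F1, C57.D300.F2 and FVB.CTL.F1 and lay below it in C57.D300.F1 and FVB.D300.F1. The intervals of the model SD of these 2 genes overlapped in every condition, so their order was not resolved, nor was that of Hoxd4 above them.

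The promoter windows of the Hox genes with the highest level in Hoxd and in Hoxb are shown because these clusters carry most of the Hox signal. They run from 250 bases before to 50 bases after the start in RefSeq (GRCm38.p6), at chr2:74721728-74722027 and chr11:96281655-96281954, both on the plus strand. Capitals mark TATAAA and the motif TTTATGG, of the kind bound by posterior Hox proteins, on either strand.
Hoxd4: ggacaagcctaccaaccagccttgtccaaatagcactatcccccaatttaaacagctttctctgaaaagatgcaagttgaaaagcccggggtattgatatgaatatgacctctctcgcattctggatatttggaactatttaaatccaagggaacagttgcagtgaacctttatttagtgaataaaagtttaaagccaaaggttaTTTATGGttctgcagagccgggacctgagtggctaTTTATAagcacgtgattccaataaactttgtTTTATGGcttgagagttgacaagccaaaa
Hoxb8: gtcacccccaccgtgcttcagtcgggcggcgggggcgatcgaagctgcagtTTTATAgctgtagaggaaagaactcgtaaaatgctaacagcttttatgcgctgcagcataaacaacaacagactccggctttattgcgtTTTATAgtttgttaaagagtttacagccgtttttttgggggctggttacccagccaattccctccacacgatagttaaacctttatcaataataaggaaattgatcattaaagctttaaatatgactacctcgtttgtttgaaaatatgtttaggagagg

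The Hoxd4 window held TTTATGG 45 bases before and 21 bases after the start and TATAAA 10 bases before it. The Hoxb8 window held TATAAA 199 and 110 bases before the start. Windows were given for 22 of the 39 genes, 24 windows in all. Of them 4 held TATAAA, 1 held TTTATGG and 2 held the Hox and Pbx motif TGATTNAT, against 13.6%, 2.75% and 3.22% of 32851 promoters. None of the matches overlapped in the windows shown. The median number of CpG dinucleotides was 14.5 in the Hox windows and 7 in all promoters, and Hoxd4 had 4 and Hoxb8 had 13.

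Levels were near the limit of detection at the posterior ends of the clusters. Of the 20 values of the 4 genes of paralog group 13, 17 were at 3 counts or fewer, and the highest was 3.98 counts, for Hoxd13 in C57.CTL.F1. Group 12 reached at most 3.32 counts (Hoxd12 in C57.D300.F2). At the anterior ends of their clusters, Hoxb1, a hindbrain patterning gene, and Hoxd1 were low as well, at no more than 2.34 and 4.16 counts. Hoxa13, Hoxb13 and Hoxd13, named above for the prostate and seminal vesicle, were thus close to the limit of detection in every condition, including C57.CTL.F1. In that condition 10 seminal vesicle secretory genes summed to 248371 counts, against 1153 to 2527 in the other 4 conditions. The model SD of that list was wide, for example 471701 counts for Svs4 at 63518 counts.

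The profile between these ends differed from cluster to cluster. In Hoxb the level per exon kb was lowest at Hoxb1 and Hoxb2 and highest at Hoxb8 or Hoxb9 among the first 9 groups in each condition, with a dip at Hoxb5 in all and at Hoxb7 in both FVB/N conditions, and was at the limit at Hoxb13, the next gene of the cluster. In Hoxd it was high at groups 3 and 4 and at 8 and 9 and declined over Hoxd10 and Hoxd11. Hoxa had 2 high genes, Hoxa4 and Hoxa10, among lower neighbours. Hoxa10, at 52231197 to 52240854 on chromosome 6 (minus strand), had 86.3, 85.3, 79.0, 77.6 and 58.6 counts per exon kb in the 5 conditions. Hoxa5, the gene next to Hoxa4 and known for lung development, had 4.75, 8.93, 9.20, 9.51 and 13.1. The Hoxc genes from Hoxc4 to Hoxc10 were all low and of similar level, from 3.92 to 20.3 counts per exon kb.

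**Figure D1:**
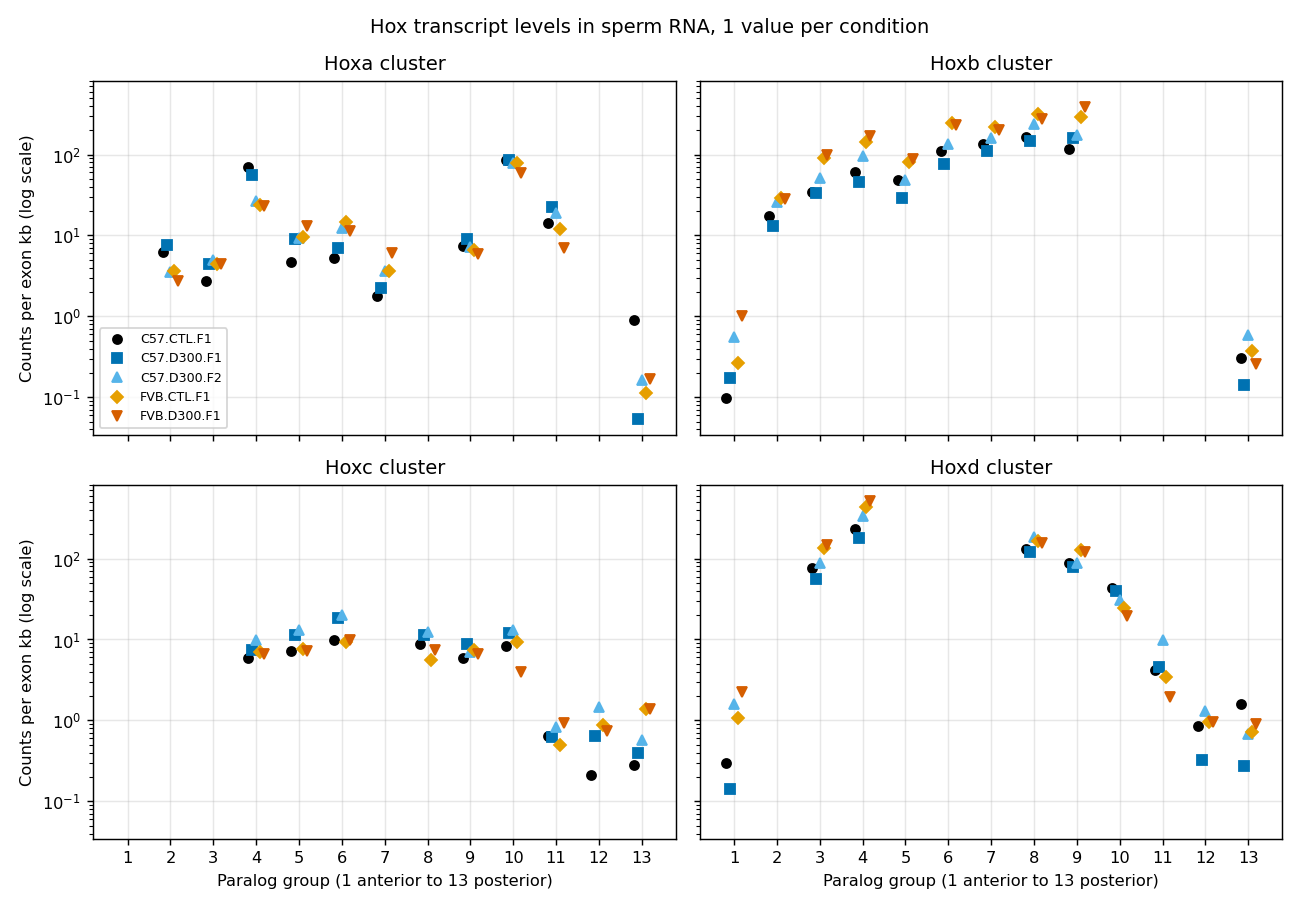
Estimated counts per kilobase of exon (log axis) of Hox genes by paralog group, 1 panel per cluster and 1 symbol per condition, with no error shown because each point is a single pooled value. Paralog groups 12 and 13 reach at most 1.60 counts per exon kb, whereas Hoxd4 lies between 180.0 and 512 and Hoxb8 between 145 and 318 counts per exon kb.

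With prenatal DEHP in C57BL/6J the Hox genes were split between higher and lower counts. Among the 27 Hox genes with at least 10 counts in C57.D300.F1 or C57.CTL.F1, 13 had a higher and 14 a lower count with DEHP, or 16 and 11 with both conditions scaled to equal totals. Their median log2 ratio (1 added to each count) was -0.02, and that of all 16825 genes tested was -0.01. With a minimum of 100 counts, 13 Hox genes remained, of which 1 was higher and 12 lower with DEHP, with a median of -0.27 (all genes -0.04). No Hox gene differed by 2 log2 units in either direction, where 0.0357% of all genes were higher and 0.256% lower, and none by 1 log2 unit, where the shares were 1.09% and 1.15%. The direction of the counts differed between clusters, though only 1 of the Hoxc genes and none of the Hoxb genes passed the model SD. All 6 Hoxc genes tested had higher counts with DEHP (median log2 ratio 0.52), and 7 of 8 Hoxb genes had lower counts (median -0.34). With conditions scaled to equal totals it was 6 of 8, where Hoxb3 changed sign. Of all 16825 genes, 8131 were higher and 8694 lower. The exception in Hoxb was its most posterior expressed gene, Hoxb9, at 303 counts under vehicle and 417 under DEHP.

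Hoxc6, known in the thoracic skeleton and mammary gland, was the only Hox gene of the 27 whose difference with DEHP in C57BL/6J passed its model SD, a limit that 3.45% of all genes exceeded upward and 3.13% downward. It had 24.0 counts under vehicle and 44.5 under DEHP, a log2 ratio of 0.87, with a difference of 20.6 counts and a model SD of 16.9. The lowest ratio was that of Hoxb5, 136 and 80.9 counts, at -0.74. Its difference of -54.8 counts lay within a model SD of 64.2. Below the limit of 10 counts, Hoxd13 had 3.98 counts under vehicle, 0.683 under DEHP, and Hoxa13 had 2.22 and 0.134. At such counts the depth does not allow a lower level to be detected.

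In FVB/N the differences with DEHP were likewise small, and those of the posterior genes were mostly downward. Of 29 Hox genes tested, 12 were higher and 17 lower under DEHP, and the median log2 ratio was -0.07 against 0.00 for all 16471 genes. None differed by 2 log2 units (0.662% of all genes were higher and 0.0182% lower). Of the 9 posterior genes tested, 8 had lower counts with DEHP (8136 of all 16471 genes), with a median of -0.33. Only 1 of the 8 differed by more than its model SD. The summed posterior count was 1442 under vehicle and 1571 under DEHP. The 9 anterior genes had a median of 0.14 and the 11 central genes one of -0.07. Again the exception on the posterior side was Hoxb9, at 747 counts under vehicle and 997 under DEHP, a log2 ratio of 0.42 and a difference of 249.6 counts within a model SD of 338.

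Hoxc10, which is expressed in the lumbar region and hindlimb, was the 1 Hox gene that was lower by 1 log2 unit and by more than its model SD, where 0.619% and 1.89% of all genes were. No Hox gene was higher by either measure, against 2.16% and 3.76% of all genes. It had 16.0, 23.3, 25.3, 17.98 and 7.49 counts in C57BL/6J (vehicle, DEHP, second generation) and FVB/N (vehicle, DEHP). FVB.D300.F1 was the lowest of these, at 7.49 counts against 17.98 with vehicle (log2 ratio -1.16, difference -10.5 counts, model SD 8.31). Hoxa11, needed for kidney, forearm and genital tract, had 32.4, 50.8, 43.0, 27.5 and 15.8 counts in the same order. Hoxd11, its partner in kidney and forearm, had 17.7, 19.0, 41.8, 14.6 and 8.19. Both were at their lowest in FVB.D300.F1 too, with log2 ratios against FVB.CTL.F1 of -0.76 and -0.77, each within its model SD.

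FVB.D300.F1 also stood apart in epididymal RNA. Of 18 epididymal genes, 16 were higher by at least 2 log2 units under DEHP in FVB/N (0.662% of all genes). Of these 16, 11 differed by more than the model SD. Several genes of this list, Gpx5 and Lcn5 among them, were reported by the authors as increased with DEHP in FVB/N in these same data. The list was chosen with that result known, so its share is a description only. Its sum was 49378, 58020.4, 74650.0, 70475 and 127666 counts in the 5 conditions. Gpx5, a glutathione peroxidase of the caput, the proximal segment of the epididymis, had 202, 199, 162, 71.4 and 24121 counts. The caput lipocalin gene Lcn5 had 1.44, 0.542, 0.714, 9.18 and 6686. Neither of these 2 differences passed its model SD, and the model SDs in FVB.D300.F1 were 80054 counts for Gpx5 and 9206 for Lcn5. Adam7 and Cd52, which were abundant in every condition, differed by less than 2 log2 units, with 23918, 28056, 30429, 37309.9 and 53922 and 24861, 29438, 43515, 32765 and 30497 counts. The part of this epididymal RNA in the lower posterior Hox counts was not tested.

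Both strains were also compared by the difference between their log2 ratios with DEHP. Among 30 Hox genes that reached 10 counts in 1 of the 4 first-generation conditions, 14 had a higher and 16 a lower ratio in FVB/N than in C57BL/6J, with a median difference of -0.03 (all 17556 genes 0.03). None lay beyond 2 log2 units, as 0.997% of all genes did upward and 0.228% downward. Hoxc10 (-1.68) and Hoxa11 (-1.40) lay below -1, where 513 of all 17556 genes lay. Their counts were higher with DEHP in C57BL/6J and lower in FVB/N. Of these differences only that of Hoxc10 in FVB/N passed its model SD. With single pooled values this difference between the strains has no test.

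**Figure D2:**
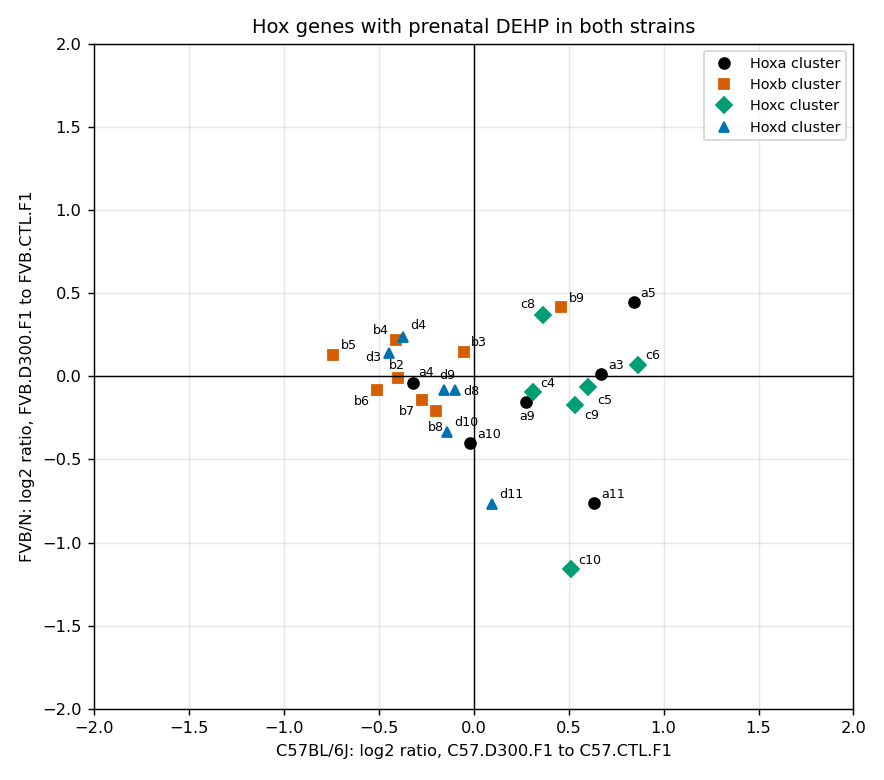
Log2 ratio with DEHP in C57BL/6J (x axis) and in FVB/N (y axis) for Hox genes with at least 10 counts in each comparison, labelled by cluster letter and paralog number. The Hoxc genes lie to the right of 0, most Hoxb genes to the left, and Hoxa11, Hoxc10 and Hoxd11 lie lowest, between -1.16 and -0.76 in FVB/N.

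Larger differences appeared between the strains, and the Hoxb genes shared their direction. All 8 Hoxb genes from Hoxb2 to Hoxb9, each with at least 46.0 counts in every condition, were higher in the vehicle condition of FVB/N than of C57BL/6J, and their median log2 ratio was 1.05. Their sum was 1665, 1508, 2275, 3486 and 3686 counts in the 5 conditions, C57BL/6J first. Over 30 Hox genes tested, 21 were higher and 9 lower in FVB/N, and the median was 0.58 against -0.03 for all 17086 genes, of which 8238 had a higher count. No Hox gene reached 2 log2 units, as 1.44% of all genes did upward and 8.88% downward. At 1 log2 unit, 6 Hox genes were higher and 1 lower, against 7.5% and 18.8% of all genes.

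Hoxb9, which patterns the thoracic ribs, had 303, 417, 449, 747 and 997 counts from C57.CTL.F1 to FVB.D300.F1. Its log2 ratio between the strains was 1.30 with vehicle and 1.26 with DEHP, and both differences, 445 and 579.9 counts, passed their model SDs of 200.4 and 301. Hoxb4, known for blood stem cells and cervical vertebrae, had 158, 119, 247, 369.8 and 431 counts. The FVB/N values of both genes lay above all 3 C57BL/6J values. Hoxb6 had 215, 151, 266, 485 and 458 counts and Hoxb3, a hindbrain and neck gene, 146, 141, 217, 382 and 424. Hoxb8, known for its part in microglia and grooming, had 439.8, 382, 623, 838 and 725. For each of these genes the 2 FVB/N conditions were the highest 2 of the 5. With vehicle, 7 of the 8 Hoxb genes differed by more than the model SD, all but Hoxb5, and with DEHP all 8 did. Over all genes, 15.9% (vehicle) and 19.4% (DEHP) did so in that direction.

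Hoxd3 and Hoxd4 had higher counts in FVB/N as well, but their differences were far inside the model SD. The log2 ratio of Hoxd4 was 0.89 with vehicle, a difference of 591 counts against a model SD of 5064. Hoxd8 and Hoxd9, further along the cluster, had 359.7, 335, 501, 453 and 428 and 189, 170.0, 186, 270.4 and 255 counts. Hoxd9, with a log2 ratio of 0.51, differed by more than its model SD, and Hoxd8, at 0.33, by less. Hoxd10, a gene of hindlimb motor neurons, went the other way, with 79.0, 71.6, 55.6, 44.4 and 35.1 counts and a log2 ratio of -0.82 that passed the model SD. Of the 6 Hoxd genes tested, 1 thus passed the model SD upward (Hoxd9) and 1 downward (Hoxd10), against 15.9% and 25.3% of all genes. The sign of the ratio differed between these neighbours, and the other Hoxd genes tested lay within the model SD.

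Hoxa4 had the opposite pattern from the Hoxb genes. This gene, at 52189671 to 52191753 on chromosome 6 (minus strand), is known to be transcribed in male germ cells during and after meiosis. It had 111, 88.7, 43.0, 37.8 and 36.7 counts in C57BL/6J (vehicle, DEHP, second generation) and FVB/N (vehicle, DEHP). The 2 reused conditions were high and the 3 new ones low, whatever the strain. Its log2 ratios were -1.53 for FVB.CTL.F1 and -1.35 for C57.D300.F2 against C57.CTL.F1, which share that control, and each difference (-73.2 and -68.1 counts) exceeded its model SD (41.0 and 40.8). Between the new conditions FVB.CTL.F1 and C57.D300.F2 it was -0.18, within the model SD. Hoxa4 shares exon bases with an antisense gene model, and whether the counting used strand is not given in the sources used here.

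Under DEHP the differences between the strains varied with cluster and with position. Comparing FVB.D300.F1 with C57.D300.F1, 29 Hox genes were tested, 15 higher and 14 lower (11 and 1 of 12 with a minimum of 100 counts, median 1.325), and none reached 2 log2 units (2.65% of all genes higher and 7.67% lower). At 1 log2 unit, 10 Hox genes were higher and 6 lower (12.0% and 19.9% of all genes), and 11 were higher and 8 lower by more than the model SD (19.4% and 27.8%). All 8 Hoxb genes were higher and all 6 Hoxc genes lower, 2 of the Hoxc genes by more than the model SD. Of all 17377 genes, 8122 were higher and 9255 lower. Of the anterior genes 6 of 10 were higher (median 1.25), of the central genes 7 of 10 (0.68) and of the posterior genes 2 of 9, Hoxb9 and Hoxd9 (-0.59), beside a median of -0.07 for all 17377 genes. The higher genes included 5 of Hoxb below group 7, Hoxb9, Hoxa7, Hoxd3 and Hoxd4. The 6 lower genes were Hoxa2, Hoxa4, Hoxa11, Hoxc10, Hoxd10 and Hoxd11, a share of the 29 that was close to the 19.9% of all genes. Hoxa11 had the lowest log2 ratio, -1.62, with a difference of -35.0 counts and a model SD of 19.4. With vehicle the same groups had medians of 0.76 (10 genes), 0.72 (11) and -0.15 (9), the last of which was 0.02 with equal totals. The epididymal list, highest in FVB.D300.F1, and the seminal vesicle list, highest in C57.CTL.F1, were given above with the values of each condition, and their part in these differences was not tested.

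**Figure D3:**
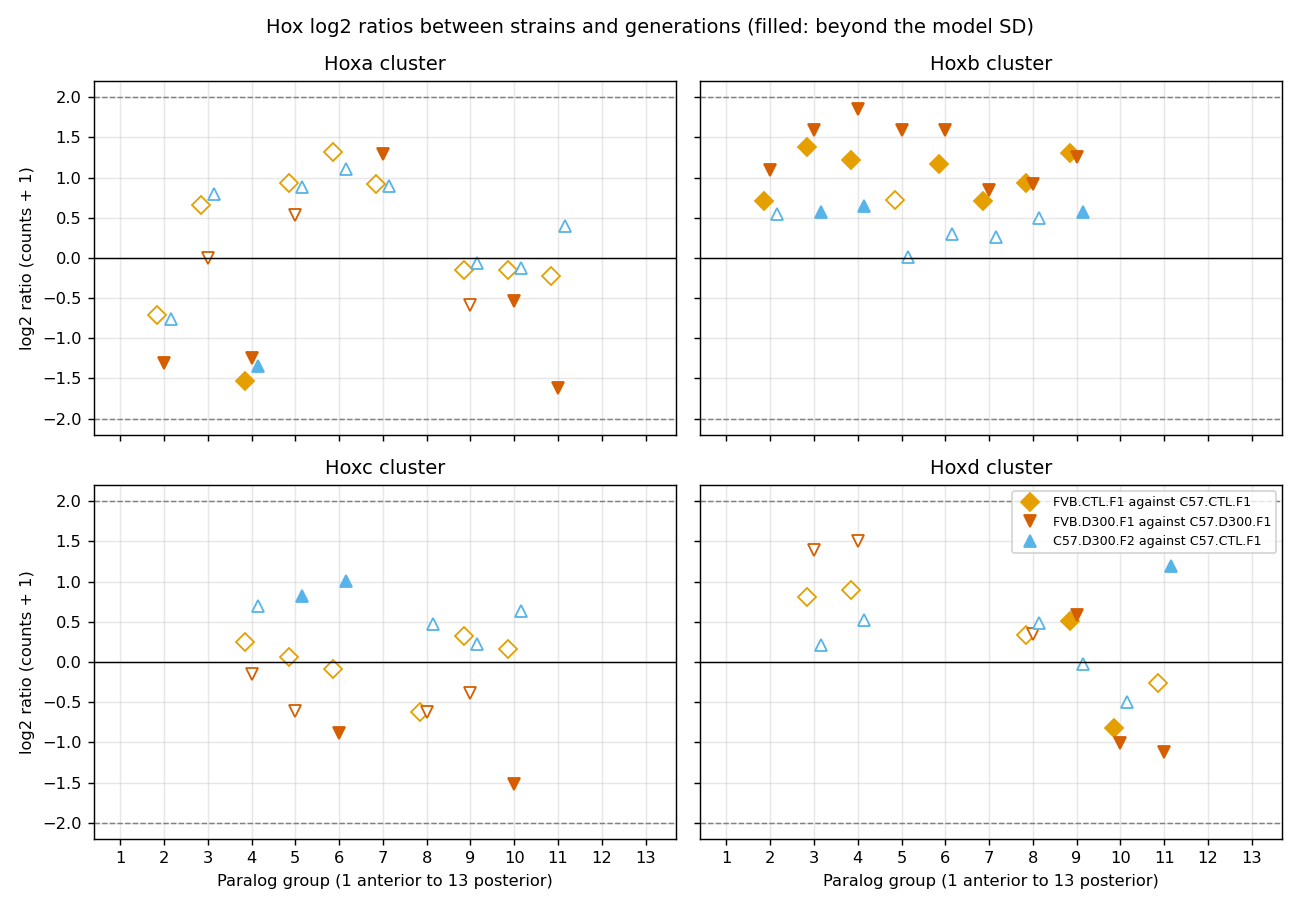
Log2 ratios of the Hox genes that reached 10 counts in the comparison, by paralog group and cluster, for both strain comparisons and for C57.D300.F2 against C57.CTL.F1, with filled symbols where the difference passes the model SD and dashed lines at 2 log2 units. All 8 Hoxb genes lie above 0 in the 3 comparisons (Hoxb5 at 0.01 in C57.D300.F2, below 0 with median-of-ratios scaling), Hoxa4 lies between -1.53 and -1.25, and Hoxa11, Hoxc10, Hoxd10 and Hoxd11 lie below -1 in FVB.D300.F1 against C57.D300.F1.

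In the second generation of the C57BL/6J lineage most Hox genes tested had higher counts than in both reused conditions of the first. Against C57.CTL.F1, 23 of 29 Hox genes tested were higher and 6 lower (27 and 3 of 30 with equal totals), with a median log2 ratio of 0.50 (all 17114 genes -0.04). None passed 2 log2 units (0.584% of all genes higher, 3.61% lower). Against C57.D300.F1, which holds the fathers' generation, 22 of 29 were higher, with a median of 0.21 (all 17133 genes -0.05), and none reached 2 log2 units (0.333% and 3.3%). All 11 central genes tested were higher in C57.D300.F2 than in each of the reused conditions, with medians of 0.50 and 0.58, in comparisons that share C57.D300.F2. With median-of-ratios scaling 10 of the 11 were higher than in C57.CTL.F1, and 7 of 8 Hoxb genes, since Hoxb5 changed sign.

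The genes that reached 1 log2 unit were few. Against C57.CTL.F1, Hoxa6, Hoxc6 and Hoxd11 were higher and Hoxa4 was lower (4.1% and 10.2% of all genes), and against C57.D300.F1, Hoxb4 and Hoxd11 were higher and Hoxa4 lower (2.69% and 8.35%). More than the model SD separated 6 higher genes and 1 lower gene in the comparison with C57.CTL.F1 (8.72% and 18.2% of all genes) and 8 higher and 2 lower genes in that with C57.D300.F1 (6.47% and 15.7%). Hoxd11 was the only Hox gene with its highest value in C57.D300.F2 and past the model SD against each of the other C57BL/6J conditions and FVB.CTL.F1. It had 41.8 counts there, against 17.7, 19.0, 14.6 and 8.19 in the other conditions. These comparisons share C57.D300.F2, and Hoxd11 shares exon bases with another gene model on its strand.

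FVB.CTL.F1 and C57.D300.F2 are a pair within the new libraries that differ in strain, and also in generation and exposure. There the Hox median was 0.04 over 29 genes (all 16969 genes -0.00), with 16 higher and 13 lower, or a median of -0.07 with 13 higher and 16 lower when scaled to equal totals and a median of 0.53 with 11 higher and 2 lower with a minimum of 100 counts, and none reached 2 log2 units (0.707% and 2.5%). The 8 Hoxb genes were again all higher in FVB/N, with a median of 0.65, and 4 of them (Hoxb3, Hoxb4, Hoxb6 and Hoxb9) passed the model SD (12.0% of all genes). Hoxc6, Hoxc8 and Hoxd11 were lower by at least 1 log2 unit (11.6% of all genes). The Hoxb genes were thus also higher in FVB/N between libraries of the same set, with a smaller median.

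The higher posterior sum in FVB/N came from Hoxb9. The summed posterior count was 986, 1107, 1127, 1442 and 1571 in the 5 conditions, C57BL/6J first, and the anterior sum was 1529.5, 1223, 2029, 2795 and 3191. Their ratio was 0.645, 0.905, 0.556, 0.516 and 0.493. Hoxd3 and Hoxd4 made up 1006, 764, 1358, 1837 and 2125 counts of the anterior sum. In the C57BL/6J conditions the model SD of Hoxd4 alone, 4914, 3925 and 9854 counts, exceeded that sum, so differences in the ratio were not resolved. Hoxb9 alone made up 30.7, 37.7, 39.9, 51.8 and 63.5% of the posterior sum. The other 15 posterior genes, taken apart after the values were seen, summed to 684, 689.8, 678, 695 and 574 counts. Their sum thus differed little between the first 4 conditions and was lowest in FVB.D300.F1. Set against the anterior sum, their ratio was 0.447, 0.564, 0.334, 0.249 and 0.180, with the same limit from Hoxd3 and Hoxd4.

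Hox sets were placed beside gene lists of the tissues that could contribute RNA. The sets and the split of the connective tissue list were chosen after the values were seen, so that any likeness between them is a description. The 39 Hox genes amounted to 27.9, 31.4, 32.0, 30.1 and 35.2% of the sum of 11 epithelial genes in C57BL/6J (vehicle, DEHP, second generation) and FVB/N (vehicle, DEHP), a range of 1.26-fold. The epithelial list includes Epcam, an epithelial adhesion gene, with 1893, 1414, 2241, 3936 and 4075 counts and Krt19, a duct keratin, with 2346, 1723, 3044, 4764 and 2647. Relative to 12 sperm and late germ cell genes the Hox total ranged 19.7-fold, from 4.20% in C57.CTL.F1 to 82.8% in FVB.CTL.F1. The summed germ cell list was 94356, 79129.9, 32010.5, 8066 and 9597 counts. The summed fragment counts of the germ cell genes were thus lower, and those of the Hox and epithelial genes higher, in FVB/N than in C57BL/6J. They are not numbers of sperm, and the Hox sum carries the wide model SDs of Hoxd3 and Hoxd4.

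The Hoxb genes from Hoxb2 to Hoxb9 were 11.7, 13.2, 14.3, 15.7 and 18.4% of the epithelial sum, a range of 1.57-fold, and 3.94-fold against 7 matrix and fibroblast genes. For Hoxc4 to Hoxc10 the reverse was found. They were 0.344, 0.371, 0.365, 0.332 and 0.367% of the matrix and fibroblast sum, a range of 1.12-fold. The range was 2.93-fold for the epithelial sum and 3.57-fold for 7 contractile smooth muscle genes. Against the whole smooth muscle and connective tissue list, before it was split, it was 1.47-fold. The matrix genes (Col1a1, Col1a2, Col3a1, Dcn, Lum, Pdgfra and Vim) summed to 33967, 47226, 52538, 35027 and 29270.5 counts and the Hoxc genes to 117, 175, 192, 116 and 107. Both were highest in C57.D300.F2 and next in C57.D300.F1. Their part in the Hox differences was not tested.

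Hoxa4 was set beside the germ cell list. Relative to C57.CTL.F1, the log2 ratio of the germ cell sum was -0.25, -1.56, -3.55 and -3.30 in the other 4 conditions, in the order used throughout, and that of Hoxa4, with nothing added, was -0.32, -1.37, -1.55 and -1.60. Both were lower in all 3 new conditions, the germ cell sum by far the more in FVB/N. The part of germ cell RNA in the Hoxa4 count was not tested. Liver genes had the same division between reused and new conditions, with 10 of them summing to 237777, 193095, 5226, 2487 and 1848 counts. Most of these liver genes were reported by the authors as lower in C57.D300.F2 in these same data. Their division was thus known when the list was chosen.

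**Figure D4:**
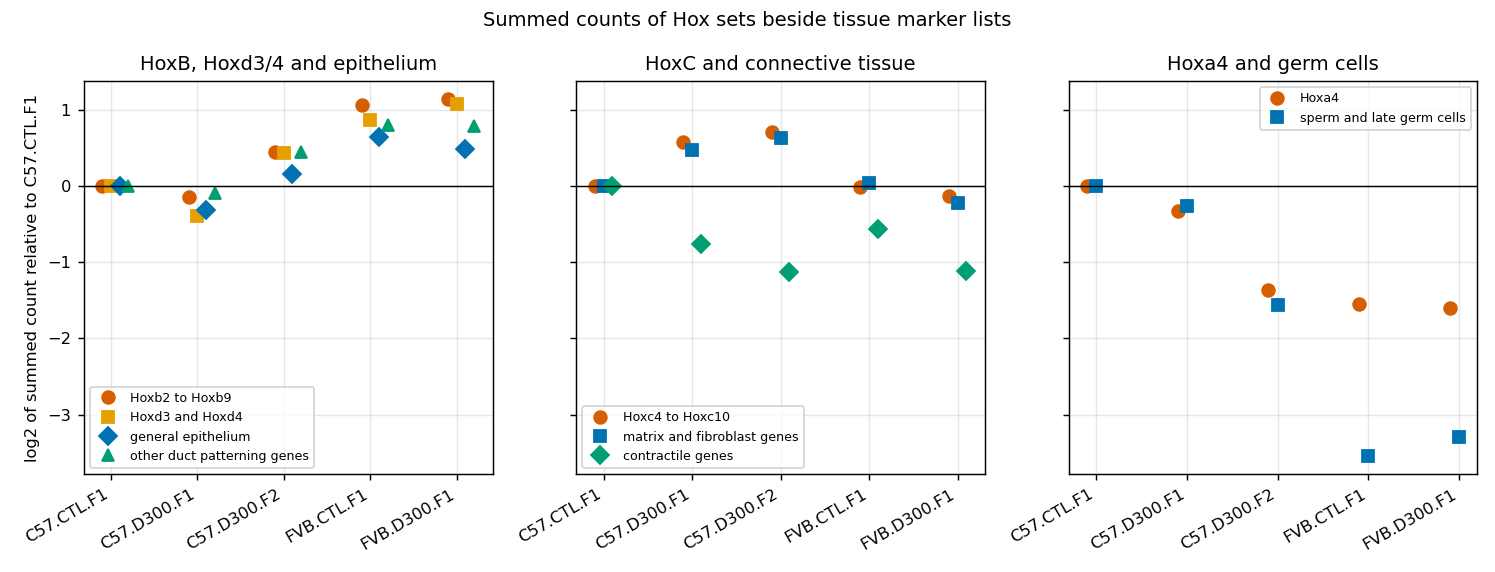
Log2 of the summed count relative to C57.CTL.F1 in each condition for Hox sets beside tissue lists, with no error shown because each sum is a single pooled value. The Hoxb genes, Hoxd3 and Hoxd4 run above the epithelial genes in both FVB/N conditions, Hoxc4 to Hoxc10 lie close to the matrix genes, and Hoxa4 is lower with the germ cell genes, at -1.37 in C57.D300.F2, but less so than they are in FVB/N.

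Noncoding genes of the clusters include 2 pairs of microRNAs with known targets among the Hox mRNAs, and each pair shares a seed. The mature sequences (RefSeq, GRCm38.p6) are shown with the seed, bases 2 to 8, in capitals.
miR-10a-5p: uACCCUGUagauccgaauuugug
miR-10b-5p: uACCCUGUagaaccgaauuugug
miR-196a-5p: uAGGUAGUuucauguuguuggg
miR-196b-5p: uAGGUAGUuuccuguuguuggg

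Mir10a lies in Hoxb, with its annotated gene ending 993 bases before that of Hoxb4, and had 31190.4, 28919, 35896, 2909 and 4199 counts in the 5 conditions, C57BL/6J first. Mir10b lies within introns of Hoxd3 and Hoxd4 and had 48454, 40273, 88039, 5222 and 8195. Both were high in the 3 C57BL/6J conditions and low in FVB/N, with log2 ratios of -3.42 and -3.21 between the vehicle conditions of the strains. Neither of these differences passed its model SD, and within the new libraries that of Mir10a did (-3.62 in FVB.CTL.F1 against C57.D300.F2) and that of Mir10b did not (-4.08). Hoxb4, Hoxd3 and Hoxd4, the neighbours of these microRNA genes, had their highest counts in FVB/N. The model SD of Hoxd4 moved with Mir10b, from 4914, 3925, 9854, 1222 and 1806 counts in the same order. The part of Mir10b reads in the Hoxd3 and Hoxd4 values was not tested.

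The miR-196 genes were close to the limit of detection. Mir196b, inside an exon of Hoxa9, had 9.16, 8.10, 18.6, 7.50 and 12.5 counts, and Mir196a-1, in Hoxb, had 2.08, 2.38, 4.46, 15.5 and 11.4. Mir196a-2, within Hoxc5, stayed under 5 counts. The known target site of miR-196a in the 3' untranslated region of Hoxb8 is shown because it pairs along all bases of the microRNA. It lies at chr11:96284888-96284909 (plus strand, GRCm38), 418 bases after the stop codon, and pairs with 21 of 22 bases of miR-196a-5p by Watson-Crick pairs and with 1 by a G:U pair. Capitals mark the bases opposite the seed.
Hoxb8 site: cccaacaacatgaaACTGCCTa

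Among the long noncoding RNAs, Hotairm1, transcribed from the anterior end of Hoxa, differed most between strains. It had 40.8, 35.6, 41.6, 205 and 182 counts from C57.CTL.F1 to FVB.D300.F1. All 3 C57BL/6J values lay between 35.6 and 41.6 counts and both FVB/N values were 205 and 182, with log2 ratios of 2.30 and 2.32 in the comparisons with vehicle and with DEHP and 2.27 within the new libraries, each past the model SD. In these comparisons 1.44%, 2.65% and 0.707% of all genes were higher by 2 log2 units. Hotairm1 shares exon bases with a gene on the other strand. Hoxa11os, antisense to Hoxa11, had 23.2, 20.8, 25.4, 12.8 and 11.0 counts. Haglr, Hoxb5os, Hoxd3os1 and Hoxaas3 reached between 13.5 and 61.8 counts at their highest. Hotair and Hottip, of the Hoxc and the posterior Hoxa cluster, did not exceed 4.58 and 2.58 counts.

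Cofactors that bind DNA with Hox proteins were described from a list of 9 Pbx, Meis and Pknox genes, all with at least 10 counts. None differed by 2 log2 units in any of the 7 comparisons, where between 0.0182% and 8.88% of all genes did in one direction. Meis1 had 116, 189.7, 192, 94.0 and 60.0 counts from C57.CTL.F1 to FVB.D300.F1 and Meis2 177, 224, 239, 104 and 75.4. Both were lowest in FVB.D300.F1 and highest in C57.D300.F2. With DEHP, Meis1 was higher in C57BL/6J (log2 ratio 0.71) and lower in FVB/N (-0.64), both past the model SD. Over all genes, 3.45% were higher past it in C57BL/6J and 1.89% lower in FVB/N. Hoxa11 and Hoxc10 had the same directions, but of their differences only that of Hoxc10 in FVB/N passed its model SD. Pbx2, Pbx3, Pbx4, Meis3, Pknox1 and Pknox2 lay between 22.3 and 233 counts.

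Other transcription factors and signals of the developing ducts were taken from a list of 15 genes, of which 13 reached 10 counts. Against C57.CTL.F1, 11 of the 13 were higher in FVB.CTL.F1 (median log2 ratio 0.50), beside 8238 of all 17086 genes (median -0.03). In C57.D300.F2, 12 of 13 were higher (median 0.47), beside 8003 of all 17114 genes (median -0.04). Pax8 and Pax2, early factors of the Wolffian duct, had 837, 533, 955, 2005 and 2229.9 and 399.9, 298, 529, 939 and 964 counts. Pax8 was the only gene of the list to reach 2 log2 units, in FVB.D300.F1 against C57.D300.F1 (2.06), as 2.65% of all genes did. The estrogen receptor gene Esr1 had 539, 693, 767, 498 and 490.3 counts. As a sum, the 39 Hox genes were 104, 100.50, 98.1, 100.04 and 107% of this list in the 5 conditions, a range of 1.09-fold. This sum, too, carries the wide model SDs of Hoxd3 and Hoxd4.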

How the data were processed

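All-RNA-seq of sperm was analysed in 25 libraries, 5 per condition, grouped as the labels name them. The authors processed reads with CASAVA 1.8.2, clipped the RA3 adapter, kept reads of at least 18 bases, mapped them to mm10 with TopHat (strand option fr-secondstrand) and quantified genes with Cuffdiff of the Cufflinks suite. The deposited values are a signal, 1 estimated fragment count per gene and condition, pooled over libraries and scaled by Cuffdiff, beside the variance of each count in its model. Cuffdiff's options and the annotation release are not given in the sources used here. In all, 10 columns were used. No Hox gene had a failed estimate, and 71 genes of the table had one in at least 1 condition and were treated as missing there.

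Log2 ratios were formed with 1 added to each count, for genes that reached 10 counts in either condition of a comparison, and 2 log2 units counted as past the fold. A difference was set against the square root of the summed model variances, which is not an SD between libraries. The strain by exposure difference was that between the log2 ratios of both strains. Count models such as edgeR and DESeq2 were not used. Levels per exon kb and coordinates came from GENCODE M21 on GRCm38, where all 39 Hox genes and 23323 genes of the table were matched. Promoters and microRNAs came from RefSeq on GRCm38.p6.

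The Hox genes and the 14 gene lists were chosen with earlier results of these data known. All Hox genes could be named, and of a list all members where 10 or fewer were detected, otherwise the 4 with the highest mean count and those past 2 log2 units. Chosen after values were seen were the Hox sets (Hoxb2 to Hoxb9, Hoxc4 to Hoxc10, Hoxd3 with Hoxd4, Hoxa4), the matrix and contractile parts of the connective tissue list, Hoxb9 apart from other posterior genes, the named genes outside that rule, and the alternative without Hox genes that share exons. Alternatives were 3 scalings between conditions, pseudocounts of 0.1 and 10, minimum counts of 100 and none, and a threshold of 1 log2 unit. The results of some single genes are not reported or plotted here, although these genes remain in counts, sums and medians. Scripts were tested on simulated data. Software versions were Python 3.11.15, matplotlib 3.10.9, scipy 1.17.1, pandas 2.3.3 and numpy 2.4.6.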

Additional observations from a re-analysis of the deposited data

How the results depend on the processing

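A median or gene value was counted as moved when an alternative shifted it by over 0.5 log2 units, and a count when it changed by more than 1.5 times. Of 306 recomputed summaries 297 stayed within these limits, and none of at least 0.5 log2 units changed sign. Many of these could hardly have moved. The factors of the 3 scalings lay between 0.895 and 1.097, too close together to shift a gene's log2 ratio by 0.5. Where no Hox gene was past the fold, the model SD filter and leaving genes out could only return 0. The tally is thus no measure of robustness. Scaling to equal totals turned the Hox medians near 0 of DEHP in C57BL/6J (0.10 in place of -0.02) and of FVB.CTL.F1 against C57.D300.F2 (-0.07 in place of 0.04). With a threshold of 1 log2 unit in place of 2, where no Hox gene was past the fold in any comparison, the number past it was 1 for DEHP in FVB/N, 4 for the second generation against C57.CTL.F1 and 3 against C57.D300.F1, 7 between the strains under vehicle and 16 under DEHP, 3 for FVB.CTL.F1 against C57.D300.F2, and 2 for the strain by exposure difference. It stayed at 0 for DEHP in C57BL/6J. With no minimum count, 1 gene passed 2 log2 units in FVB.D300.F1 against C57.D300.F1, Hoxd1, which had 0.262 and 4.16 counts. With a minimum of 100 counts the Hox median of that comparison was 1.325 in place of 0.35. The 12 Hox genes left, 11 of them higher, then included no Hoxc gene.

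A pseudocount of 10 moved 7 of 34 single-gene values, among them those of Hoxa2, Hoxa6, Hoxa7 and Hoxc10, all of genes under 30 counts, toward 0. Scaling to equal totals shifted the median of all genes by over 0.1 log2 units in some comparisons, to 0.26 for the second generation against C57.CTL.F1 and 0.15 between the strains under vehicle, where the Hox medians lay 0.55 and 0.61 above it. The number of Hox genes higher was then 27 in place of 23 and 24 in place of 21. No paired analysis was possible because each condition has a single pooled value, and leaving out single libraries was not run for the same reason. The depth sets the limit at 3 counts, under which the genes at the cluster ends could not be compared.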

Other observations

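Chromatin regulators and upstream inputs of the Hox clusters were described from lists of their own. Polycomb genes, which keep Hox genes silent outside their domains, summed to 4207, 4478, 4538, 4214 and 4200.3 counts in the order of conditions used throughout, a narrow range. Single members differed more, of which Ezh2 and Phc1 were picked after their values were seen. Ezh2, the H3K27 methyltransferase, had 226, 229, 111, 102 and 102 counts, and Phc1, of Polycomb complex 1, 433, 407, 269.6, 124 and 129, so that both were higher in the reused than in the new conditions. Cbx8, which reads H3K27 methylation, had 194, 311, 594, 417 and 702 and was lowest in C57.CTL.F1. Trithorax genes and H3K27 demethylases, which keep Hox genes active, summed to 10467, 10007, 11632, 15219 and 15316. Between the strains under vehicle, 11 of 12 of them were higher in FVB/N, with a median log2 ratio of 0.35. Of all 17086 genes, 8238 were higher there (median -0.03). Kmt2d, an H3K4 methyltransferase, had 2476, 2164, 2815, 4178 and 4336 counts.

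Genes of retinoic acid signalling and the Cdx factors, which set the anterior borders of Hox domains in the embryo, summed to 8029, 7823, 7019.5, 7724 and 6173 counts. Cyp26a1, which degrades retinoic acid, had 13.4, 11.7, 1.53, 0.508 and 4.09 counts and was thus higher in the reused conditions. Gdf11, a ligand that sets the trunk to tail transition and posterior Hox borders, had 6.08, 6.72, 8.43, 22.6 and 39.8. Its log2 ratio was 2.40 in FVB.D300.F1 against C57.D300.F1, past 2 log2 units. Cdx1, Cdx2 and Cdx4 were near the limit of detection.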
